A study of Mus musculus with 15 samples.

Results

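The genes described here encode the proteins of the cytosolic ribosome. They were chosen by name: every protein-coding gene of the GENCODE M21 mouse annotation whose symbol starts with Rpl or Rps followed by a digit, plus Rplp0, Rplp1, Rplp2 and Rpsa, leaving out kinase names and symbols that mark a pseudogene. The rule found 86 genes, among the 52844 genes to which transcripts of the deposited tables were matched. Of the 86, 83 had enough counts to be tested, among 14968 tested genes. By role, 46 encode large-subunit proteins, 31 encode small-subunit proteins and 8 are like-named relatives or gene duplicates. The last, Rps19bp1, encodes a protein that binds Rps19 and is not itself part of the ribosome, although its symbol meets the rule.

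The RNA came from dissociated jejunal epithelial cells of 15 CC027/GeniUnc mice, a Collaborative Cross strain, with 3 mice in each of 5 groups. One group had received intragastric PBS and no challenge. The other 4 groups had received crude peanut extract by the same route, 2 mg weekly for 3 weeks and 5 mg in week 4. Of these, 1 group was left unchallenged (the sensitized controls) and the others were challenged with 12 mg of the extract and killed 30, 60 or 120 min later. All mice were of this 1 inbred strain, and the labels used here give no age. The jejunal segment started 6 cm from the pylorus and was 4 cm long, and its cells were released by shaking after 75 min in a buffer with EDTA and DTT.

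A cytosolic ribosome holds 1 copy of most of its proteins, so cells need them in matched amounts. Their mRNAs are among the most abundant in a dividing tissue such as the intestinal crypt. Most begin with a run of pyrimidines, the 5′ terminal oligopyrimidine (TOP) tract, through which mTOR and LARP1 control how strongly they are translated. The mRNA levels given here do not measure translation. Mammalian genomes also carry many processed copies of these genes, formed by reverse transcription of their mRNAs, and reads can match a gene and its copies alike.

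The start regions of several members are shown because the TOP tract is what these mRNAs share by design, and the naming rule did not use it. RefSeq promoter sequence (GRCm38.p6) was matched for 66 of the 86 members. Each line runs 5′ to 3′ on the gene's own strand, from 40 bases before the annotated start to 15 bases after it, and capitals mark the longest run that starts with C and goes on with C or T only. They lie at chr17:33955651-33955705 for Rps18 (minus strand), chr4:86857353-86857407 for Rps6 (minus strand), chr2:26910767-26910821 for Rpl7a (plus strand), chr7:141447611-141447665 for Rplp2 (plus strand) and chr14:18270972-18271026 for Rpl15 (minus strand).
Rps18: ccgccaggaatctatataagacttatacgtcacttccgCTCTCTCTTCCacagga
Rps6: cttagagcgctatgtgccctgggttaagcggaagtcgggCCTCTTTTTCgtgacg
Rpl7a: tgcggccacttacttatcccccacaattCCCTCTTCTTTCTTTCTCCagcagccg
Rplp2: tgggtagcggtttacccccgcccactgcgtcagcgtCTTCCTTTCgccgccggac
Rpl15: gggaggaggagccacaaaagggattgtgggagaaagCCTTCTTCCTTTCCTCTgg

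A run of at least 8 such bases within 50 bases on either side of the annotated start, read on the gene's strand only, was present in 53 of the 66 members (80.3%). The same run was present in 32.0% of all 27025 genes with a promoter sequence. The letters CCGGAAG, searched on both strands over the whole 300 bases, were found in 26 of the 66 members (39.4%) and in 9.9% of all genes. AAGATGGC, searched the same way, was found in 6 members (9.1%) and in 3.2% of all genes. The pyrimidine run on the gene's strand can share its end with the reverse complement of CCGGAAG, so those matches are not separate features. These are counts of letters in fixed windows.

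The second set of sequences shows why some members' values need care. A copy of the Rps18 coding sequence, Gm10260, differs from it at 4 of 456 coding bases, and a copy of Rpl29, Gm8210, at 3 of 480. The lines below give 41 bases of each coding sequence around the first difference, from GENCODE M21 transcripts, with the differing base in capitals. Counted from 1 at the A of the start codon, the first difference is T186C for Gm10260 and C72A for Gm8210, with the member's base first.
Rps18: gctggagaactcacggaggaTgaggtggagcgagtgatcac
Gm10260: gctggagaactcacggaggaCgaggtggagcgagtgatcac
Rpl29: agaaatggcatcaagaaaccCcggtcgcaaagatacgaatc
Gm8210: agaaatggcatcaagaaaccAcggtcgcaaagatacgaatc

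Between 15584620 and 22594021 reads per library were assigned to genes. The members took 2.10% of them in 60 min replicate 3 and up to 3.85% in 60 min replicate 1. The group means were 2.94% ± 0.12 in PBS mice, 2.92% ± 0.32 in sensitized controls, and 3.39% ± 0.23, 2.87% ± 0.89 and 3.31% ± 0.23 at 30, 60 and 120 min (SD, n = 3 each). The 60 min group thus held both the lowest and the highest share of the series. Mitochondrially encoded transcripts took 33.2% of the reads in 60 min replicate 3 and 14.0% in 60 min replicate 1, against 13.8% to 26.7% in the other libraries. Epithelial markers averaged a log2 CPM (counts scaled to a common library size) of 10.12 to 10.69 in every library. Stromal and endothelial markers, of which 5 of 8 were tested, averaged 4.27 in 30 min replicate 1 and at most 0.72 elsewhere.

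Per unit of length, the members spanned a wide range of levels. The median mean level was 574 TPM (a length-corrected scale with the same total in each library) over the large-subunit genes and 644 TPM over the small-subunit genes, and 74 of these 77 genes averaged at least 100 TPM. The highest were Rplp1, a protein of the acidic stalk that recruits translation factors, at 2195 TPM (1298 to 2721 over the libraries), Rps12 at 1980 TPM (979 to 2635), Rps27rt at 1837 TPM (700 to 2703), Rps24 at 1489 TPM (809 to 1885) and Rpl13a at 1363 TPM (729 to 1725). The ranges of these 5 overlap, so their order is not settled by these libraries. The stalk base Rplp0 stood at 1138 TPM and the other stalk protein, Rplp2, at 451 TPM. The lowest tested members were Rps27 at 11.3 TPM, Rps19bp1 at 12.9, Rpl7l1 at 22.6, Rpl5 at 26.6 and Rpl12 at 28.7. For Rps27, Rpl5 and Rpl12, copies of the same sequence held most of the reads, as given next.

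**Figure D1:**
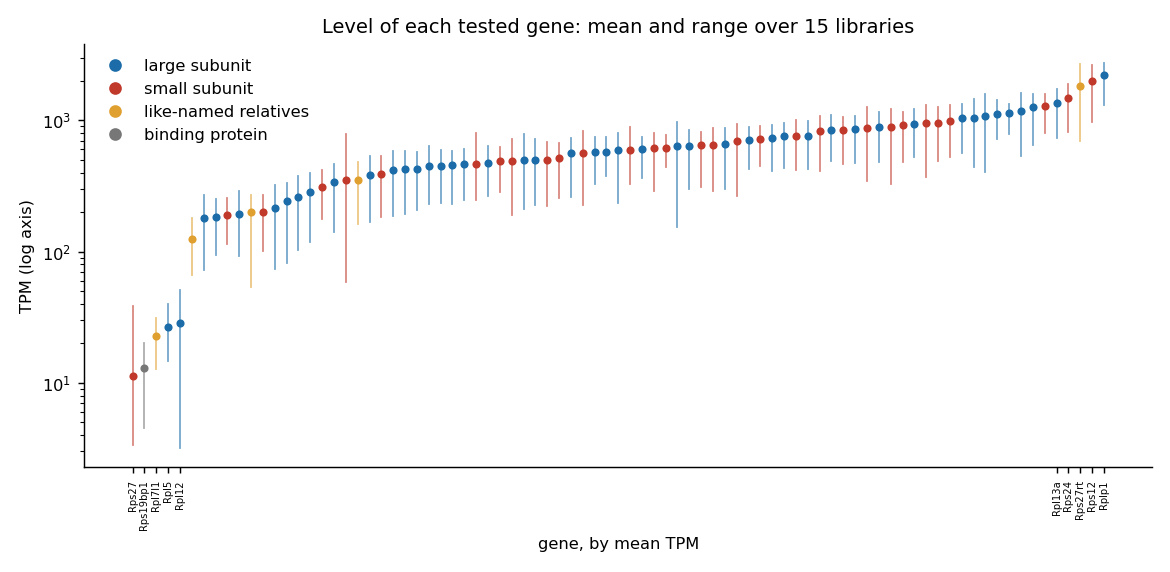
Mean TPM (log axis) of each of the 83 tested genes, ordered by level (the 5 lowest and 5 highest are named), with lines from the lowest to the highest of 15 libraries and colours for role. Most genes lie above 100 TPM, and Rps27, Rps19bp1, Rpl7l1, Rpl5 and Rpl12 stand below 30.

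Genes other than the members whose transcript matched a member's coding sequence, at 90% identity or more over at least 80% of it, numbered 940, of which 920 are annotated as pseudogenes and 19 as protein-coding. They matched 75 of the 86 members. A member that copies another member was not counted as a look-alike, so the pair Rps27 and Rps27rt is described separately. Over the whole set the members held 87.6% to 89.98% of the reads of these families in every library, but the split differed by gene. Of the members, 70 held at least 90% of their family's reads, a count that includes Rps27 only because Rps27rt was left out of its family. A further 8 held between 50% and 90%, and 8 held under 50%. Among the latter, Rpl10l had 0 reads, and Rpl12 held 4.65% of its family's reads, Rpl5 5.48%, Rpl10 16.3%, Rps18 30.6%, Rpl27a 36.2%, Rps2 41.1% and Rpl10a 47.1%. The coding sequences of Rpl12, Rpl5, Rpl10, Rpl27a and Rpl10a have a copy without any difference over their whole length (Gm10275, Gm15500, Rpl10-ps3, Gm7536 and Rpl10a-ps1). Reads of such coding sequence cannot be told apart by sequence, and the deposited estimates divide them.

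The share that fell to Rps18, a small-subunit protein, changed from mouse to mouse. Its level was 266, 206 and 28.1 CPM in PBS mice, and 21.3, 124 and 124 in sensitized controls. After challenge it was 33.7, 259 and 27.2 CPM (30 min), then 152, 109 and 107 (60 min), then 132, 127 and 279 (120 min). Very low values stood beside high ones within 3 of the groups. With the reads of its look-alike genes added, the same libraries ran from 326 CPM in PBS replicate 2 to 550 CPM in 30 min replicate 1. The within-group SD of its log2 CPM was 1.34 alone and 0.17 for the summed family. The annotated transcript Rps18-209, a processed transcript without a coding sequence, took from 0% to 68.5% of the Rps18 reads across libraries.

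The share of Rpl29, a large-subunit protein, also differed between libraries. It held 59.7% of its family's reads in the library with the lowest share and 99.8% in the highest. Its level was 523, 440 and 350 CPM in PBS mice, and 238, 542 and 563 in sensitized controls. After challenge it was 574, 242 and 280 CPM (30 min), then 548.5, 322 and 186 (60 min), then 525, 565 and 603 (120 min). All 3 libraries at 120 min were high, and the values of each other group were spread more widely. Its within-group SD fell from 0.57 to 0.29 on the log2 scale when look-alike reads were added. For Rps2 the SD was 0.41 alone and 0.10 for the family, for Rpl12 0.63 and 0.13, and for Rpl10 0.38 and 0.16.

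**Figure D2:**
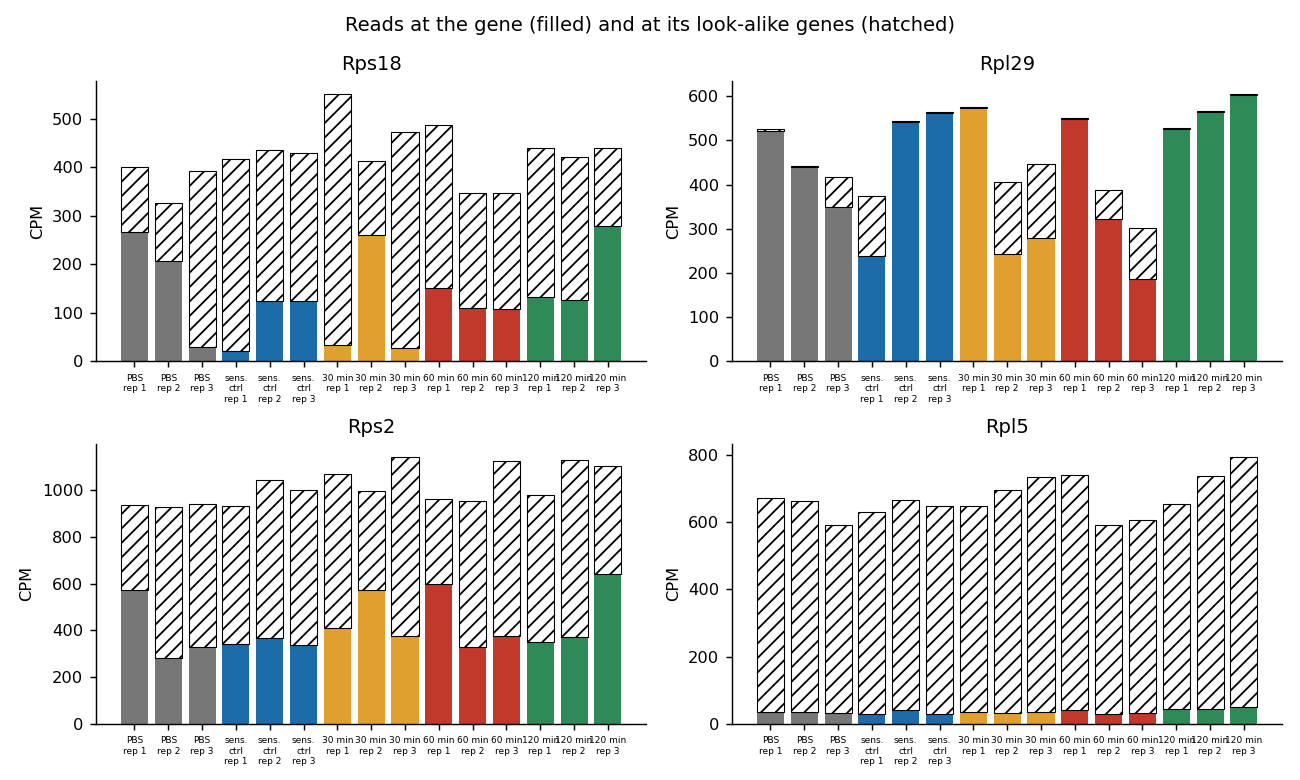
CPM in each of 15 libraries for 4 members (filled bars, coloured by group) and for their look-alike genes (hatched, stacked on top). The filled part of Rps18 ranges from 21.3 to 279 CPM while the whole bar ranges from 326 to 550, and Rpl5 holds only a thin base of its family's reads.

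Rps27, a zinc-finger protein of the small subunit, and Rps27rt, an intron-less copy annotated as protein-coding and therefore also a member, have coding sequences without a difference over 252 bases. Rps27 had 1.07 to 5.11 CPM over the 15 libraries and Rps27rt 89.97 to 211 CPM. Rps27 held between 0.93% and 3.31% of the pair's reads. The related Rps27l, known as a p53-induced gene, had 20.2 to 66.0 CPM.

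Other like-named pairs were divided as follows. Rpl3, the large-subunit protein next to the peptidyl transferase centre, averaged 785 CPM, while its muscle form Rpl3l had at most 0.42 CPM and was not tested. Rpl10l and Rpl39l, known from the testis, were at 0 in 15 and in 14 of 15 libraries. Rpl22 averaged 428 TPM and its relative Rpl22l1 125 TPM. Rpl36a averaged 455 TPM and Rpl36al 349 TPM, and Rpl7 averaged 605 TPM against 22.6 TPM for Rpl7l1. Rpl36a held 65.0% of the reads of its family of look-alike genes and Rpl36al 98.3%, so the TPM of Rpl36a leaves out more such reads. The levels of these pairs are given as a description, and their differences were not tested.

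In each library, 97.3% to 98.6% of the members' reads were on transcripts annotated as protein-coding. Transcripts annotated as targets of nonsense-mediated decay held 0.64% to 1.26%, and those with retained introns 0.47% to 1.17%. The retained-intron transcript Rps20-201 held 13.8% of the reads of Rps20 (9.49% to 17.4%). Within Rpl12, which kept few reads of its own, the decay target Rpl12-201 held 35.3% and the retained-intron transcript Rpl12-207 held 22.5%.

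Differences between groups were tested with edgeR's quasi-likelihood test on all tested genes with Benjamini-Hochberg adjustment, and called at an adjusted p under 0.05. No member was called in any of the 9 comparisons, nor in the test for any difference among the 5 groups. In that joint test 0.347% of all tested genes were called. On data simulated for 60 min against sensitized controls, with 14968 genes, 69 of 100 genes changed 2-fold were recovered and 11 of 100 changed 1.5-fold. DESeq2 and limma-voom called 0 members in each comparison as well, except that DESeq2 called 1 (1.2%) at 120 min against PBS, where it called 6.45% of all tested genes. In the other comparisons DESeq2 called from 0.0334% (60 against 30 min) to 6.35% (120 against 60 min) of all tested genes. For limma-voom the background ran from 0% to 1.16% over the 9 comparisons. In the joint test the background was 7.49% with DESeq2 and 0.227% with limma-voom, with 0 members called by either.

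Against PBS mice, sensitized controls had slightly higher values for most members. Of 83 members, 65 had a positive log2 fold change and the median was 0.06, against 0.01 over all tested genes, of which 51.5% were positive. No member was called and the background was 0%, and 0 members had an unadjusted p under 0.05 (background 1.42%). The sensitized libraries lay all above those of PBS mice for 2 members (background 3.88%) and below them for 0 (background 4.1%). The largest positive differences were in Rpl38 (0.37 ± 0.33, log2 ± SE), Rps23 (0.35 ± 0.19) and Rps29 (0.33 ± 0.33), and the largest negative ones in Rps18 (-0.89 ± 1.0), Rpl10 (-0.53 ± 0.27) and Rps2 (-0.18 ± 0.30). With look-alike reads added, the values of the last 3 turned to 0.20, 0.07 and 0.09.

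At 30 min after challenge, 79 of 83 members had higher estimates than in sensitized controls, with a median of 0.10 (0.01 over all genes, 51.2% positive). None was called (background 0%), and 1 had an unadjusted p under 0.05 (background 5.04%). All 3 libraries lay above all 3 controls for 17 members, or 20.5%, against 6.49% of all tested genes, and below them for 0 (background 7.84%). The large-subunit protein Rpl3 had 777, 893 and 860 CPM at 30 min against 687, 768 and 725 in sensitized controls, without overlap between the groups and with a log2 fold change of 0.21 ± 0.12 (adjusted p = 0.981, edgeR). The largest positive values among members of at least 10 CPM were in Rpl10 (0.40 ± 0.27), Rps2 (0.37 ± 0.30) and Rps18 (0.25 ± 1.0), all of which share their reads with copies. The negative ones were in Rpl29 (-0.29 ± 0.42), Rps26 (-0.06 ± 0.19) and Rpl36al (-0.02 ± 0.16). Without 30 min replicate 1, the library with the high stromal markers, 54 members instead of 79 had positive values and the median was 0.07. The part of those stromal cells in the result was not tested.

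At 60 min the members were split by mouse rather than shifted as a group. The median of the members' deviations from their own means over all 15 libraries was 0.16 (log2) in replicate 1, -0.29 in replicate 2 and -0.28 in replicate 3. In replicate 1, 76 of 83 members lay above their mean, in replicate 2 only 1 did, and in replicate 3 it was 10. Against sensitized controls 20 members had positive values, the median was -0.11 (-0.02 over all genes, 47.6% positive), and none was called (background 0.00668%). An unadjusted p under 0.05 was found for 2 members (background 12.6%), and the libraries lay all below the controls for 1 member (background 9.14%) and all above them for 0 (background 9.37%).

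Single members at 60 min showed the same split. Rps6, the small-subunit protein that is phosphorylated by S6 kinase, had 742, 594 and 464 CPM against 655, 710 and 736 in sensitized controls. Rpl11, which with Rpl5 and the 5S RNA can bind Mdm2, had 392.3, 264 and 218 CPM against 330, 362 and 329. In both genes replicate 1 was the highest and the other 2 lay below every control. Rplp0 had 1533, 1486 and 1852 CPM against 1401, 1484 and 1614, and Rpsa, which is also known as a laminin receptor, had 1041, 1026 and 1367 CPM against 912, 973 and 1081. In these last genes replicate 3 was the highest, so not all members were low in that mouse. The log2 fold change of Rpsa was 0.21 ± 0.15 (adjusted p = 0.573, edgeR).

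The largest negative values at 60 min were in Rpl12 (-0.52 ± 0.44), Rps29 (-0.48 ± 0.33) and Rpl37 (-0.43 ± 0.24), and the largest positive ones, beside Rpsa, in Rps18 (0.45 ± 1.0) and Rps2 (0.32 ± 0.30). With look-alike reads added, Rpl12 was at -0.01 (adjusted p = 0.982) and Rps18 at -0.12 (adjusted p = 0.778). Without 60 min replicate 1, edgeR called 3 of 83 members (3.6%) lower than in sensitized controls, near the 2.5% of all tested genes called in that fit, among them Rps21 (-0.71, adjusted p = 0.0423) and Rps27rt (-0.77, adjusted p = 0.046). The median was then -0.26. Without replicate 2 it was -0.01, and without replicate 3 it was -0.03, with 0 members called in both fits (background 0% and 0.0065%). All 8 epithelial markers had negative values at 60 min against sensitized controls (median -0.23) and 0 were called. Their part in the members' values was not tested.

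**Figure D3:**
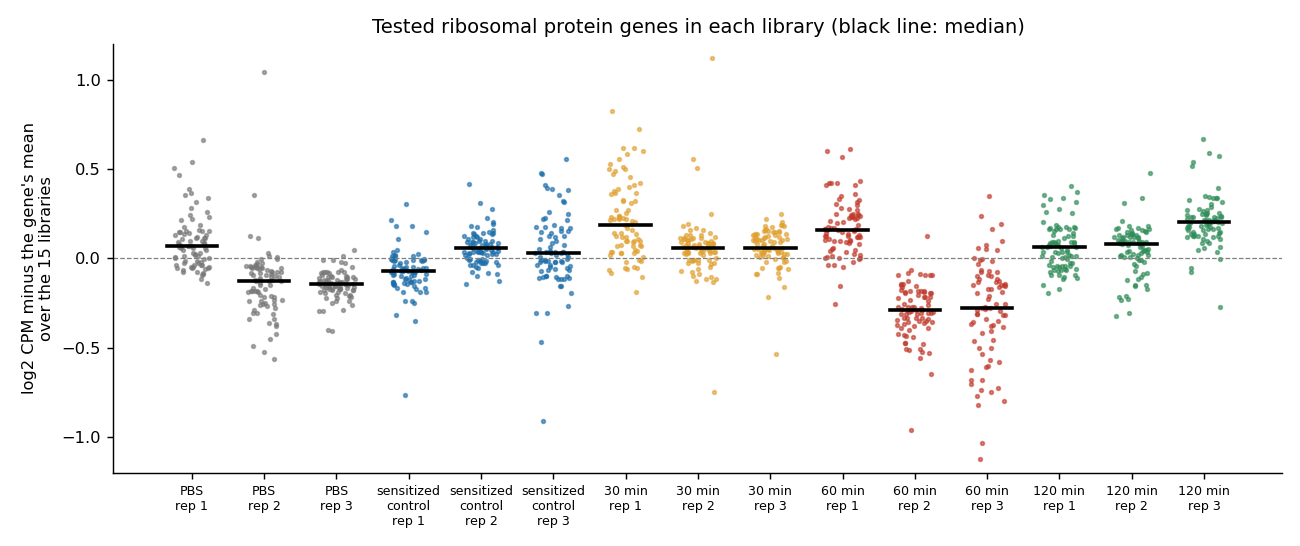
Log2 CPM of each of 83 tested genes minus its own mean over the 15 libraries, by library, with the median as a black line. The 3 libraries at 60 min have medians of 0.16, -0.29 and -0.28, and 9 points lie outside the axis.

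At 120 min, 71 of 83 members had positive values against sensitized controls, with a median of 0.11 (-0.01 over all genes, 49.2% positive). None was called, while 1.26% of all tested genes were. An unadjusted p under 0.05 was found for 2 members (background 17.7%). All 3 libraries lay above all 3 controls for 15 members, or 18.1%, against 13.3% of all genes, and 0 lay below (background 13.3%). The median of the members' deviations from their own means was 0.062, 0.081 and 0.203 in replicates 1, 2 and 3 at 120 min. In sensitized controls it was -0.073, 0.056 and 0.028. In 120 min replicate 3, 79 members lay above their mean. Leaving out each library in turn, the median fold change ranged from 0.052 to 0.13, and 60 to 76 members were positive.

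The member with the smallest p at 120 min was Rpl5, a large-subunit protein that carries the 5S RNA into the ribosome. It had 43.5, 44.5 and 51.5 CPM at 120 min, against 28.1, 42.1 and 29.0 CPM in sensitized controls, and 35.04, 34.1 and 32.5 in PBS mice. Earlier after challenge it had 36.1, 33.4 and 36.6 CPM (30 min), then 40.4, 28.04 and 32.1 (60 min). The 3 libraries at 120 min were the highest of the 15. The log2 fold change against sensitized controls was 0.49 ± 0.16 (unadjusted p = 0.00735, adjusted p = 0.132, edgeR). Its family summed to 655, 739 and 794 CPM at 120 min and 629, 667 and 648 CPM in sensitized controls, and the fold change of the sum was 0.17 (adjusted p = 0.498). The value for Rpl5 alone thus rests on the 5.48% of reads assigned to it.

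Rps15a had 281, 310 and 326 CPM at 120 min against 269, 272 and 257 in sensitized controls, and Rps27a, which is made as a fusion with ubiquitin, had 277, 309 and 338 CPM against 256, 273 and 262. In both genes the groups did not overlap. The largest positive values beside Rpl5 were in Rps18 (0.999 ± 1.0) and Rps2 (0.38 ± 0.30), and the negative ones in Rps29 (-0.22 ± 0.33), Rpl38 (-0.15 ± 0.33) and Rpl41 (-0.13 ± 0.25). With look-alike reads added, Rps18 was at 0.02 (adjusted p = 0.961).

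Against PBS mice, 81 of 83 members had positive values at 120 min, with a median of 0.17 (0.00 over all genes, 50.4% positive). None was called by edgeR (background 1.18%), and 5 had an unadjusted p under 0.05 (background 18.8%). All 3 libraries lay above the PBS libraries for 20 members, or 24.1%, against 12.3% of all genes, and below them for 0 (background 13.9%). Rpl5 had the smallest p, with a log2 fold change of 0.46 ± 0.16 (adjusted p = 0.146, edgeR), and 0.19 with look-alike reads added (adjusted p = 0.431). This comparison shares its 120 min libraries with the one against sensitized controls, so the values are not independent.

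Between challenge times, 1 of 83 members had a higher estimate at 60 than at 30 min (47.0% of all genes), with a median of -0.21. None was called (background 0%), and 4 had an unadjusted p under 0.05 (background 4.46%). The 60 min libraries lay all below those at 30 min for 3 members (background 3.75%) and all above for 0 (background 3.19%). The smallest p was in Rps27, with a log2 fold change of -1.46 ± 0.37 (adjusted p = 0.863, edgeR). Its level was 1.90, 1.13 and 1.07 CPM at 60 min and 3.49, 5.11 and 2.75 CPM at 30 min. Rps27 held 1.63%, 3.31% and 1.77% of the reads it shares with Rps27rt at 30 min, and 0.93%, 1.12% and 1.16% at 60 min. Rps27rt averaged 171 ± 35 CPM at 30 min and 131 ± 61 CPM at 60 min (SD, n = 3). The value for Rps27 alone thus rests on a small share of the pair's reads, and the sum of the pair was not tested. From 60 to 120 min, 79 members had positive values (49.5% of all genes), the median was 0.22, 12 had an unadjusted p under 0.05 (background 19.7%) and 0 were called (background 1.12%). All 3 libraries at 120 min lay above those at 60 min for 4 members (background 10.2%) and below for 0 (background 9.78%). Rpl36al had 105, 71.5 and 72.0 CPM at 60 min and 109, 106 and 129 CPM at 120 min, a log2 fold change of 0.46 ± 0.16 (adjusted p = 0.136, edgeR).

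This last comparison also turned on 60 min replicate 1. Without that library 18 of 83 members (21.7%) were called higher at 120 than at 60 min, beside 7.46% of all tested genes called in the same fit, up from 1.12%. The 18 members included Rpl36al (0.65, adjusted p = 0.0255), Rpl11 (0.55, adjusted p = 0.0327), Rps27l (0.88, adjusted p = 0.0343), Rps6 (0.51, adjusted p = 0.0393) and Rpl5 (0.60, adjusted p = 0.0397). The median was then 0.36. Without replicate 2 or replicate 3 the median was 0.11 or 0.13 and 0 members were called (background 0.0129% and 0.013%). From 30 to 120 min, 40 members were higher (48.8% of all genes), the median was -0.01, 1 had an unadjusted p under 0.05 (background 17.7%) and 0 were called (background 1.01%). The 120 min libraries lay all above those at 30 min for 1 member, Rpl5 (background 12.1%), and all below for 1, Rps21 (background 10.1%). For the mean of the 3 times against sensitized controls, 47 were higher (47.5% of all genes), the median was 0.03, 0 had an unadjusted p under 0.05 (background 10.5%) and 0 were called (background 0%). The challenged libraries lay all above or all below the controls for 0 members (background 1.18% and 1.25%).

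**Figure D4:**
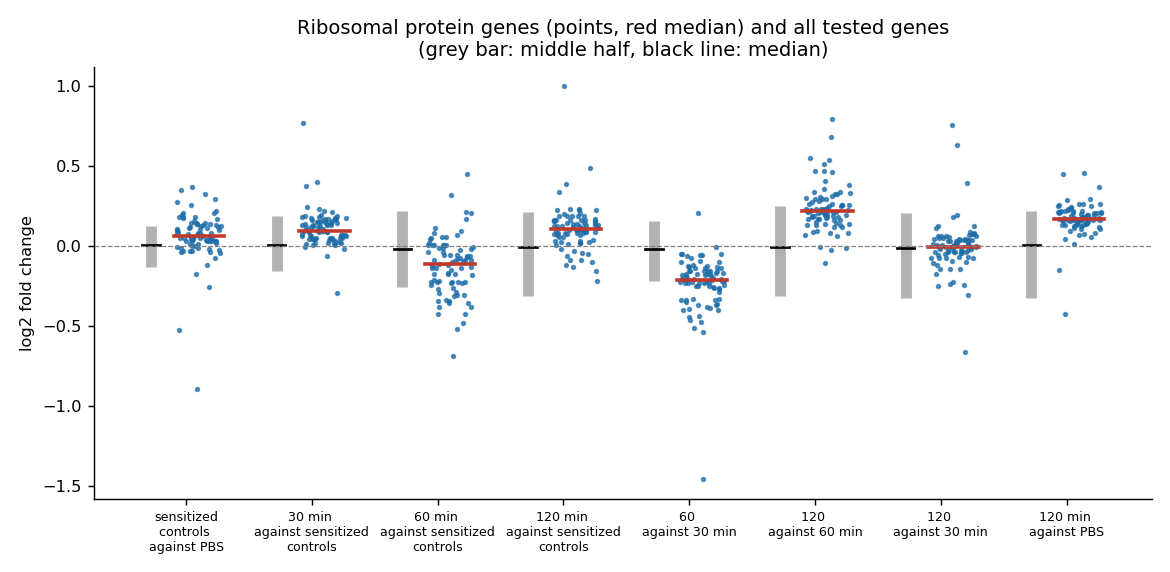
Log2 fold changes of the 83 tested members (blue points, red median) in 8 comparisons, beside the interquartile range of all 14968 tested genes (grey bar, black median). The members' medians run from -0.21 for 60 against 30 min to 0.22 for 120 against 60 min, and no member was called.

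The medians of both subunits stood close to each other. The median of the large-subunit genes was 0.09, -0.12 and 0.09 at 30, 60 and 120 min against sensitized controls, and that of the small-subunit genes 0.13, -0.09 and 0.12. The summed CPM of the large-subunit genes was 1.41 to 1.55 times that of the small-subunit genes over the 15 libraries. Group means of this ratio were 1.48 ± 0.01 in PBS mice, 1.496 ± 0.013 in sensitized controls, and 1.49 ± 0.05, 1.496 ± 0.021 and 1.47 ± 0.05 at 30, 60 and 120 min (SD, n = 3), differences within the spread between mice.

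How much a member varied between mice of a group differed by gene. The within-group SD of log2 CPM had a median of 0.17 over the 83 members and was under 0.2 for 52 of them. Among the smallest were those of Rpl7a (0.08), Rps14 (0.08), Rps15a (0.09) and Rps4x (0.09). Rpl7a had 555 to 713 CPM over all 15 libraries. It was largest for Rps18, Rpl12 and Rpl29, whose copies are given above, followed by Rps29 (0.44) and Rpl38 (0.43), a pair of very short mRNAs.

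Rps29 had 76.7, 41.6 and 47.7 CPM in PBS mice, and 64.7, 66.4 and 77.1 in sensitized controls. After challenge it had 96.8, 60.9 and 55.1 CPM (30 min), then 78.5, 37.3 and 33.03 (60 min), then 73.6, 49.9 and 55.5 (120 min). Rpl38 was highest in the same library, 30 min replicate 1, at 100.8 CPM, and lowest in 60 min replicate 3, at 35.5 CPM. Across the 83 members the Spearman correlation of this SD was -0.36 with effective length and -0.72 with mean CPM, a description over genes that share the same libraries.

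The members were divided at their median effective length of 509.5 bases, the length over which a transcript could yield a fragment. In 60 min replicates 2 and 3 the median deviation was -0.33 and -0.29 over the 41 shorter members and -0.26 and -0.19 over the 42 longer ones. The 923 other tested genes under that length had medians of -0.20 and -0.42 in the same libraries, and the 13962 other genes over it 0.02 and 0.00. In 30 min replicate 1 the shorter members were at 0.22, the longer at 0.12 and the other short genes at 0.29. In these 3 libraries the other short genes had medians of the same sign as the members. In others they did not: in 30 min replicate 2 the other short genes were at -0.14 and the shorter and longer members at 0.06 and 0.07, and in sensitized control replicate 1 the values were 0.10, -0.06 and -0.08. The part of length in the members' values was not tested further.

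**Figure D5:**
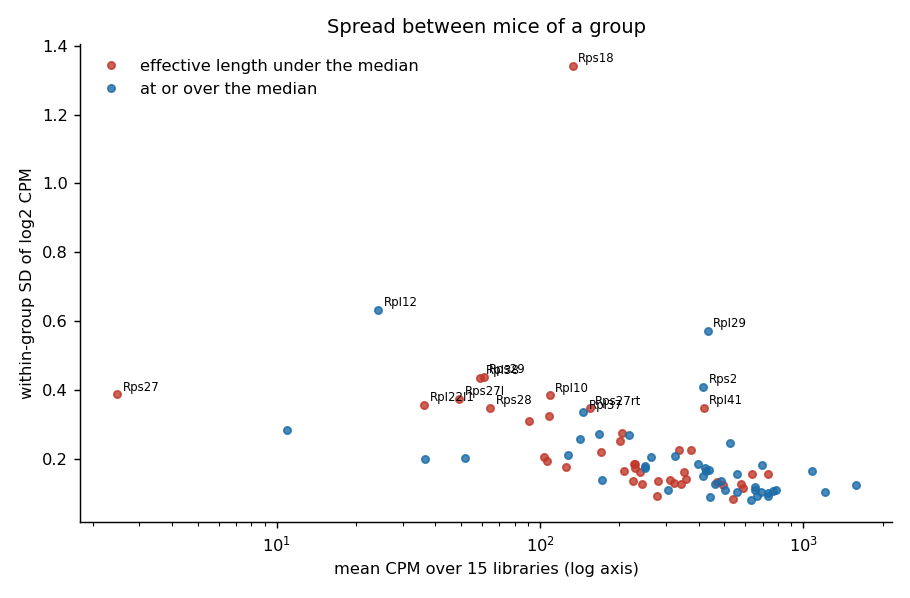
Within-group SD of log2 CPM against mean CPM (log axis) for the 83 tested members, coloured by effective length. Rps18 stands apart at 1.34, and the short, less abundant genes such as Rps29 and Rpl38 lie above the abundant ones.

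Genes that work with the ribosome were read from lists of fixed membership. Of 21 translation factors and other TOP mRNAs, 17, 13 and 20 had positive values at 30, 60 and 120 min against sensitized controls, with medians of 0.10, 0.06 and 0.10, and 0 were called. Of 28 genes for ribosome biogenesis and Myc, 23, 16 and 27 had positive values, with medians of 0.15, 0.05 and 0.42, and 0 were called. The mean log2 CPM of this list was 5.327, 5.025 and 5.813 in replicates 1, 2 and 3 at 120 min. In sensitized controls it was 5.14, 5.029 and 4.923. Replicate 2 at 120 min thus lay within the controls, and replicate 3 was the highest of the 15 libraries. From 60 to 120 min, Myc, a transcription factor that drives ribosome production, rose from 16.9 ± 4.9 to 33.9 ± 10.5 CPM (SD, n = 3), a log2 fold change of 0.999 ± 0.211 (adjusted p = 0.0386, edgeR). The value for Myc missed the threshold without 60 min replicate 2 (1.12, adjusted p = 0.0758) or 3 (0.76, adjusted p = 0.127) and without 120 min replicate 1 (1.04, adjusted p = 0.132) or 3 (0.71, adjusted p = 0.125). Of 78 mitochondrial ribosomal protein genes, 42, 13 and 55 had positive values at the 3 times, with medians of 0.01, -0.17 and 0.08, and 0 were called. From 60 to 120 min all 78 were positive, with a median of 0.26. Their mean log2 CPM was 4.58, 4.33 and 4.08 in replicates 1, 2 and 3 at 60 min.

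Of 14 genes of mTOR and LARP1 control, 7, 7 and 12 had positive values against sensitized controls at 30, 60 and 120 min and 0 were called. Of 7 ribosome quality control genes, 2, 4 and 7 did, again with 0 called. Among 10 p53 targets, 0 were called against sensitized controls.

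Markers of cell types were read in the same way. At 120 min against sensitized controls, 0 of 9 T cell markers (median -1.73) and 0 of 8 B and plasma cell markers (median -1.79) had positive values, and all 12 proliferation genes did (median 0.46), with 0 called in each list. The T cell markers averaged a log2 CPM of 2.127, 1.653 and 0.802 in replicates 1, 2 and 3 at 120 min. In sensitized controls they averaged 2.365, 2.334 and 4.076. For the B and plasma cell markers the values were 3.004, 3.067 and 1.736 at 120 min and 3.313, 3.03 and 5.348 in sensitized controls. On both lists the gap was widest between replicate 3 of each group, and the other replicates lay closer together. The proliferation genes averaged a log2 CPM of 5.325, 5.251 and 5.939 in replicates 1, 2 and 3 at 120 min. In sensitized controls they averaged 5.181, 5.023 and 4.937. Replicate 3 at 120 min was the highest of the 15 libraries on this list too. Of 7 tested Paneth cell markers, 0 had positive values (median -0.70) and 0 were called. Fewer cells of a type and less RNA per cell cannot be told apart in bulk RNA, and the part of these cells in the members' values was not tested.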

How the data were processed

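RNA of 15 libraries was read as 151-base paired-end sequence. Per the labels and the submitters' processing notes, the authors used cutadapt 1.18 and then Salmon 1.2.1, with build mm10. Which annotation release they used is not given here. The deposited tables give estimated counts, TPM and effective length (another unit, in bases) per transcript. Transcripts were matched to GENCODE M21 (137943 of 139058; the rest held 0.37% to 0.60% of the reads per library), and estimated counts were summed per gene and rounded. The members and lists were chosen with earlier results of these data known.

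All 15 libraries entered 1 fit per analysis in edgeR 4.0.16 (filterByExpr, TMM scaling, quasi-likelihood test, group as the only term). Calls used an adjusted p under 0.05 over 14968 genes; log2 CPM used a prior count of 2. Alternatives used DESeq2 1.42.0, limma 3.58.1, other scalings, filters, length offsets, added pseudogene reads and each library left out. Look-alike genes were found with BLAST 2.17.0 after the data had been seen. The code was tested on simulated data. Named genes were those called, the 3 with the largest change in each direction at 30, 60 and 120 min and in sensitized controls against PBS mice, at 10 CPM or more, the 5 highest and lowest by TPM, the 5 most and least variable, and fixed examples, except a few items that are not reported here; other genes named here were chosen after their values were seen. Each library is 1 mouse. Counts are read counts without molecular identifiers.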

Additional observations from a re-analysis of the deposited data

How the results depend on the processing

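The members' medians kept within 1 SD of the library medians (0.138, log2) under every alternative run except leaving out 60 min replicate 1. This SD exceeds the size of the main medians at 30, 60 and 120 min against sensitized controls (0.10, -0.11 and 0.11). It also exceeds those for sensitized controls against PBS mice, the mean of the 3 times and 120 against 30 min. Such a median could move to 0 and still be within it, so this measure cannot show that those medians were stable. Leaving out each library in turn, the median ranged from -0.260 to -0.008 for 60 min against sensitized controls (0 to 3 members called), from -0.355 to -0.116 for 60 against 30 min, and from 0.109 to 0.364 for 120 against 60 min (0 to 18 called). The mean of the 3 times ranged from -0.017 to 0.062 and 120 against 30 min from -0.053 to 0.031, so neither has a settled sign. DESeq2 called 1 member at 120 min against PBS mice, or 1.2%, beside 6.45% of all tested genes. Without 60 min replicate 1, 2.5% of all tested genes were called at 60 min against sensitized controls and 7.46% for 120 against 60 min. The cause was not tested in these cases.

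Without mitochondrially encoded genes the members' share was 3.673% in PBS mice, 3.680% in sensitized controls, 4.188% at 30 min, 3.626% at 60 min and 3.912% at 120 min. With look-alike reads added it was 3.298%, 3.309%, 3.835%, 3.232% and 3.718% in the same order, and with pseudogene-named reads added it was 3.106% in PBS mice and 3.036% at 60 min. Added reads raise a share by construction.

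Some single values changed sign. With pseudogene-named reads added, and with look-alike reads added, Rpl10 was at 0.068 for sensitized controls against PBS. With pseudogene-named reads added, Rps2 was at -0.057 at 60 min and 0.187 for sensitized controls against PBS, and with look-alike reads at 0.086 for the last. With look-alike reads added, Rps18 was at -0.120 at 60 min and 0.195 for sensitized controls against PBS. At 30 min, length offsets gave 0.025 for Rpl36al and 0.009 for Rps26, and limma-voom gave -0.171 for Rps18. Leaving out each library of the groups compared in turn, values at 30 min ranged from -0.110 to 0.067 for Rpl36al, from -0.165 to 0.087 for Rps26 and from -1.556 to 0.704 for Rps18. In the same way Rps18 ranged from -0.005 to 0.776 at 60 min, and Rps2 from -0.370 to 0.193 for sensitized controls against PBS. No paired analysis was possible because the titles carry a different number for each mouse, shared by no 2 groups. With 3 mice a group, changes under 1.5-fold are mostly below what the test can call.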
